A study of Mus musculus with 16 samples.

Results

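Bone marrow of mice carrying a K74R change in a KLF gene was compared with bone marrow of wild-type (WT) mice by RNA sequencing. The comparison took every gene with enough counts in the 6 marrow libraries, 14872 of the 55536 genes in the table, and 6 of the 16 libraries of the series. The other libraries came from MSC, an abbreviation the labels do not expand, and from MC38 tumors, grown from a mouse colon adenocarcinoma line. Since MC38 is one established line, the genotype given for a tumor is taken here as that of its host mouse, which the labels do not spell out, with the same tumor cells in both groups. The WT marrow group has the genotype KLF WT and the mutant group KLF K74R, with 3 libraries each. Sample titles call the mutants KO, although K74R is an exchange of lysine for arginine and not a deletion. The labels give no age, sex, strain or treatment for either group and say nothing of whether the replicates were different animals. The p-values below therefore describe the spread among these libraries, part of which could be technical.

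KLF proteins are zinc-finger transcription factors that bind GC-rich and CACC-type DNA. A K74R mouse line is known for Klf1 (EKLF), the erythroid factor that switches on adult globin, heme and red cell membrane genes, where the changed lysine is a site of attachment for the small protein SUMO. The labels do not say which KLF gene is meant. Bone marrow holds red cell precursors, granulocytes and their progenitors, developing B cells, megakaryocytes, plasma cells and a thin stroma with bone-lining cells, so a bulk library sums all of them.

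Total counts ran from 14067259 to 15858275 per library, and 3 counts, taken as the floor, corresponded to 0.188 to 0.221 CPM (counts scaled to library size). Markers of erythroblasts, neutrophils, B cells, megakaryocytes, T cells, monocytes and marrow stroma were all present. The summed markers of epithelium (Krt5 at 0), hepatocytes and cartilage reached at most 2.65, 0.0684 and 1.68 CPM. Those of skeletal muscle varied between libraries, from 1.57 to 23.4 CPM in WT and from 3.76 to 18.8 CPM in K74R. Adipocyte markers summed to 5.485 to 22.1 CPM in WT and 10.2 to 26.3 CPM in K74R. Klf1 itself measured 123, 102 and 136 CPM in WT against 130, 99.9 and 85.7 CPM in K74R, and the groups overlapped (log2 fold change -0.20, SE 0.15, adjusted p = 0.541). A missense change is not visible in gene counts, so the Klf1 level checks no label. On the first principal component, which held 46.4% of the variance, WT library 2 (-2.27) and K74R library 1 (3.98) lay nearest each other, while the other WT libraries were at -23.9 and -22.8 and the other K74R libraries at 20.7 and 24.4.

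With edgeR's quasi-likelihood test and Benjamini-Hochberg adjustment, 115 genes passed an adjusted p of 0.05, 0.773% of those tested. Of these, 76 were higher (0.511%) and 39 lower (0.262%) in K74R, and in all 115 the 3 libraries of one genotype lay above the 3 of the other. Complete separation of the groups was seen in 22.9% of all tested genes. In all, 59 of the called genes differed at least 2-fold, and the median log2 fold change over all tested genes was -0.001. The number of calls depended strongly on single libraries. With WT library 1, 2 or 3 left out it was 46, 684 or 11, and with K74R library 1, 2 or 3 left out it was 150, 16 or 21. Of the 59 called genes that the naming rule selected, 10 passed in every fit with a library left out, namely Tsc22d3, Per1, Ddit4, Dsp, Lypd6b, Vill, Ighg1, Rpl3-ps1, Gm8730 and AI506816. The other 49 all lost their call when WT library 3 was left out. Leaving out K74R library 2 ended 43 calls, K74R library 3 ended 39, WT library 1 ended 24, K74R library 1 ended 6 and WT library 2 ended 0. None of the 59 changed direction in these fits. DESeq2 called 518 genes (342 higher and 176 lower), 3.78% of the 13717 to which it gave an adjusted p, and limma-voom called 80 (0.538%). The DESeq2 counts given for lists below stand beside these DESeq2 totals and not beside the edgeR shares.

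**Figure D1:**
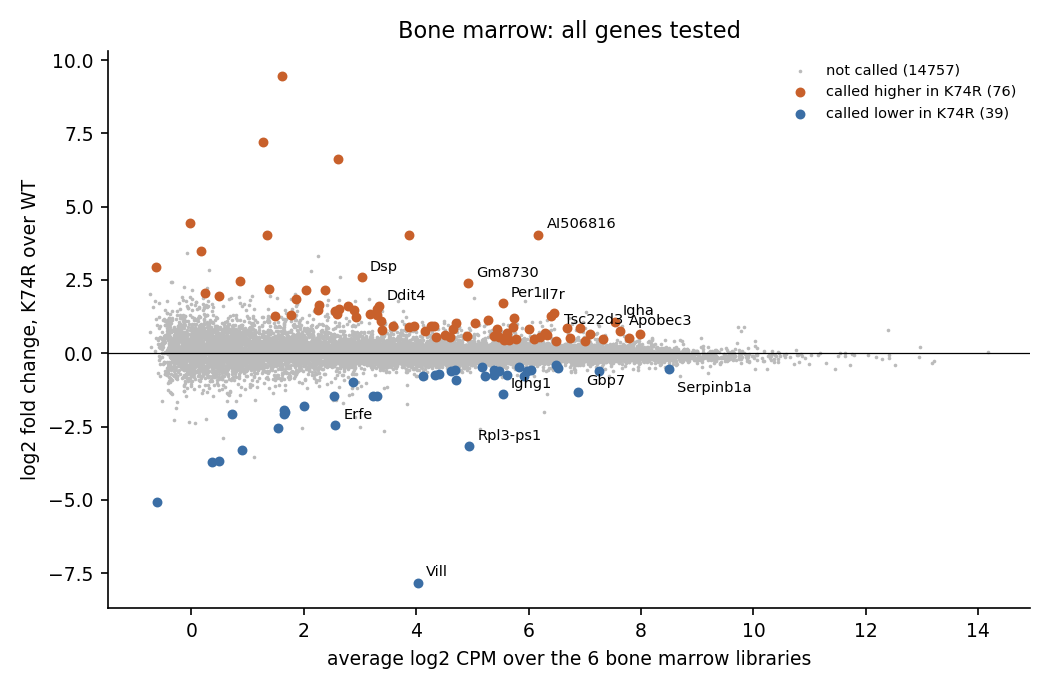
Log2 fold change of K74R over WT against average log2 CPM for the 14872 genes tested in bone marrow. Each dot is a gene, with the 76 called higher in orange, the 39 called lower in blue and the rest in grey. Vill lies lowest at -7.82. Tsc22d3 (1.28), Per1 (1.72) and Il7r (1.37) lie above 0 at moderate abundance. Some grey dots, such as Col1a1 (1.37), lie as high as Tsc22d3 and Il7r.

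One set of named genes consisted of transcripts that glucocorticoid hormones are known to raise. Glucocorticoids enter cells and activate the receptor encoded by Nr3c1, which binds DNA and within hours lifts a small set of genes in most blood cells. Tsc22d3, Per1, Ddit4, Zfp36 and Dusp1 rose in K74R marrow by 1.76- to 3.28-fold in mean CPM, and no tested member was called lower by edgeR. The genes called higher were 5 of the 24 tested members, beside 0.511% of all genes. This list and those below were chosen with earlier results of these data known, so a larger share in them is no independent support. DESeq2 called 8 members higher and 2 lower. The median log2 fold change of the list was 0.14 and 17 of the 24 values were positive.

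As the sequences that bear on these genes, the 250 bases before annotated starts are shown for Per1 and Dusp1, which hold known regulatory letters, and for Tsc22d3, where the window shown holds none of them. Tsc22d3 has 3 windows, another of which holds TGACG, and Per1 has 2, so 1 start is shown for each. Capitals mark CACGTG (the E-box of the clock factors) and TGACG or TGACGTCA (the cAMP response element and its core) wherever they occur on either strand. Windows are from RefSeq on GRCm38.p6, written 5′ to 3′ on the gene's strand. Of the 7 genes looked up, 5 had an entry. The windows of Ddit4 and Zfp36, not shown, hold none of the letters marked by capitals.
Per1, chr11:69098699-69098948, plus strand: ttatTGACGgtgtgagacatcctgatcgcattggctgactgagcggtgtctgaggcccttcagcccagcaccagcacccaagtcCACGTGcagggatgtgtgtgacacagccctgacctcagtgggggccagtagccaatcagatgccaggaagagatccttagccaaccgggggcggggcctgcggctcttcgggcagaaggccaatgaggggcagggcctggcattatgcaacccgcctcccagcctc
Dusp1, chr17:26508473-26508722, minus strand: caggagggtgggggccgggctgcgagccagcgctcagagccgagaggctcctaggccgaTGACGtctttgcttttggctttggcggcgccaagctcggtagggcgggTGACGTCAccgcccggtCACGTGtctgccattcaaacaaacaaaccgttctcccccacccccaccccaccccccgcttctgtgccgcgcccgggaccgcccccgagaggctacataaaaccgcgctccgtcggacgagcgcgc
Tsc22d3, chrX:140542669-140542918, minus strand: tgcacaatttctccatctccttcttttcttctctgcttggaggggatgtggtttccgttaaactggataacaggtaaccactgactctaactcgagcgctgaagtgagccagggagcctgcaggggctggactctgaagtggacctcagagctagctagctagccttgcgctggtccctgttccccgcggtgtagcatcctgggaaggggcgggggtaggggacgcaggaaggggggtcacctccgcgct

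The E-box letters occurred in 6.02% of all 32851 such windows, TGACGTCA in 1.55% and TGACG, which also lies within TGACGTCA, in 17.8%. The full palindromic glucocorticoid response element was in none of the windows read for these 5 genes and in 0.00913% of all windows. CCNCNCCC, a loose form of the CACC box that KLF factors bind, occurred 2 times in the Per1 window, 8 times in that of Dusp1 and 1 time in that of Tsc22d3, and at least 1 time in 45.9% of all windows. These are matches of letters and not measured binding.

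Tsc22d3, also called GILZ, encodes a leucine-zipper protein that mediates part of the anti-inflammatory action of glucocorticoids. It stood at 57.0, 46.6 and 44.2 in WT libraries 1 to 3 against 124, 117 and 118 CPM in K74R libraries 1 to 3. The groups were far apart, with little spread among the K74R libraries (log2 fold change 1.28, SE 0.10, adjusted p = 8.72e-04). Per1, a repressor of the circadian clock that glucocorticoids and cAMP also induce, was at 24.1, 16.6 and 24.6 in WT against 76.7, 69.4 and 68.0 CPM in K74R. Its log2 fold change of 1.72 (SE 0.14, adjusted p = 0.00106) was the largest in the list. Ddit4 (REDD1), an inhibitor of the growth kinase complex mTORC1, was at 4.65, 4.84 and 5.16 in WT against 13.4, 16.3 and 15.1 CPM in K74R (log2 fold change 1.61, SE 0.15, adjusted p = 0.00242). These 3 genes kept their call in all 16 alternative fits.

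Zfp36 (tristetraprolin), which binds AU-rich messenger RNAs such as that of TNF and speeds their decay, was at 50.5, 42.6 and 45.6 in WT against 88.5, 84.9 and 71.4 CPM in K74R (log2 fold change 0.82, SE 0.10, adjusted p = 0.0116). Dusp1, a phosphatase that switches off MAP kinases, was at 29.7, 20.4 and 22.2 in WT against 60.8, 57.4 and 41.0 CPM in K74R (log2 fold change 1.14, SE 0.18, adjusted p = 0.0301). K74R library 3 was the lowest mutant library for both genes and still lay above every WT library. Both calls ended when either WT library 3 or K74R library 2 was left out, and in a model of all 16 libraries, with adjusted p up to 0.235 for Zfp36 and 0.175 for Dusp1 over the 16 alternatives. Outside the list, Sik1, a kinase induced by cAMP that restrains CREB coactivators, rose from 35.4 to 39.5 CPM in WT to 60.6 to 75.6 CPM in K74R (log2 fold change 0.89, adjusted p = 0.00648). Zfp36l2, a relative of Zfp36, rose from 172 to 194 CPM to 247 to 267 CPM (log2 fold change 0.53, adjusted p = 0.0195). Bmf, which encodes a BH3-only promoter of apoptosis, was picked out after its values were seen and rose by 1.02 on the log2 scale (adjusted p = 0.0472).

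Among members that did not pass, Cxcr4, the receptor that holds blood cells in marrow, was at 219 to 261 in WT against 325 to 350 CPM in K74R (adjusted p = 0.0529). Pik3ip1, an inhibitor of PI3 kinase, was at 13.7 to 17.3 CPM against 23.6 to 25.9 CPM (adjusted p = 0.059). Nfkbia, the inhibitor of NF-kB, was at 51.9 to 60.3 CPM against 68.7 to 81.4 CPM (adjusted p = 0.0818). In each of these the groups did not overlap. Other separated members went the other way. Anxa1, an anti-inflammatory phospholipid-binding protein, was at 1409 to 1490 in WT against 1109 to 1214 CPM in K74R (log2 fold change -0.29, adjusted p = 0.133), and Fkbp4, a co-chaperone of steroid receptors, at 125 to 143 CPM against 98.1 to 114 CPM (-0.33, adjusted p = 0.114). In the whole list 9 members were separated upward and 2 downward, beside 11.8% and 11.1% of all genes. At an unadjusted p of 0.05, 9 were higher and 3 lower, beside 9.8% and 7.99% of all genes. The same shares apply to such counts in the lists below. Other members often used as readouts of the receptor overlapped between the genotypes. Fkbp5, a co-chaperone of the receptor, had a log2 fold change of -0.31 (adjusted p = 0.408), Sgk1 of 0.13 (0.669), Klf9 of 0.19 (0.497), Txnip of 0.05 (0.72) and Zbtb16 of 0.16 (0.681). The receptor gene Nr3c1 was at 149, 153 and 149 in WT against 169, 187 and 185 CPM in K74R (log2 fold change 0.26, adjusted p = 0.124).

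**Figure D2:**
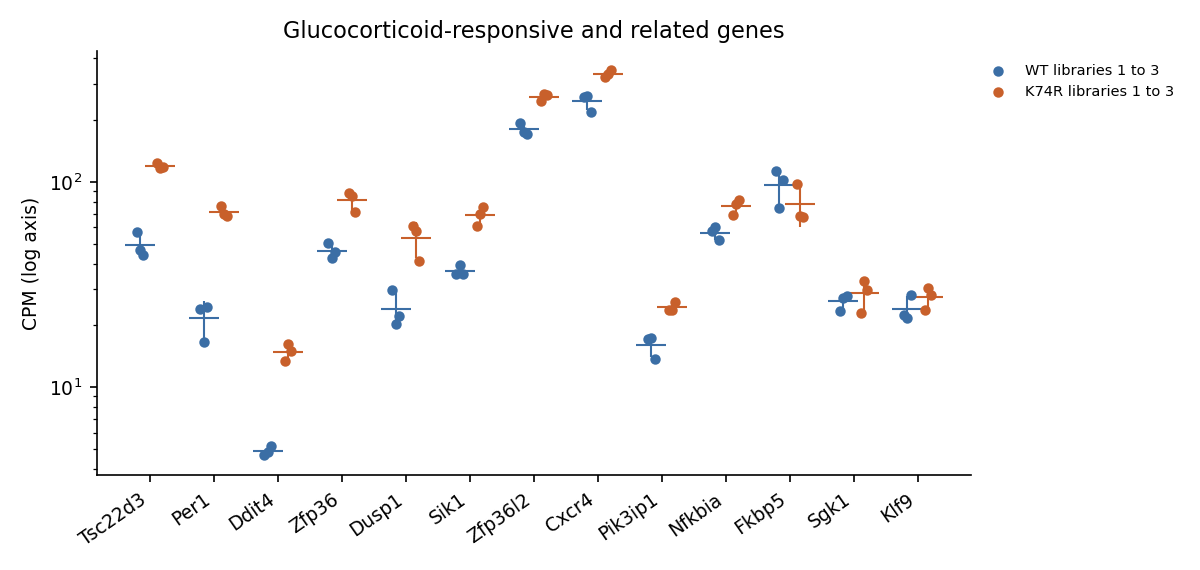
CPM on a log axis for 11 glucocorticoid-responsive genes and for Sik1 and Zfp36l2, with 3 WT libraries (blue) and 3 K74R libraries (orange) per gene, the mean as a horizontal line and 1 SD as a vertical line. The orange points lie above the blue ones for Tsc22d3, Per1, Ddit4, Zfp36 and Dusp1, whereas the groups overlap for Fkbp5, Sgk1 and Klf9.

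Per1 was also the one called gene among 20 tested circadian clock genes. Arntl, the activator of the clock, was at 15.7 to 24.01 in WT against 24.8 to 40.6 CPM in K74R (log2 fold change 0.90, adjusted p = 0.10), and Bhlhe40, a repressor, was at 23.2 to 24.1 CPM against 16.1 to 17.3 CPM (log2 fold change -0.49, adjusted p = 0.059). Per2 had a log2 fold change of 0.25 (adjusted p = 0.272), Nr1d1 of -0.29 (0.626) and Dbp of 0.18 (0.792). The labels do not state the hour at which marrow was collected. Of 22 tested immediate early genes, which respond within minutes to stimulation or to cell handling, Zfp36 and Dusp1 rose and none fell, with 17 positive values and a median of 0.21. Jun was at 5.23 to 7.45 in WT against 8.83 to 13.2 CPM in K74R (adjusted p = 0.133). Fos was at 17.0, 3.58 and 9.59 in WT against 26.8, 20.5 and 9.79 CPM in K74R and overlapped (adjusted p = 0.364), as did Egr1 (log2 fold change 0.25, adjusted p = 0.464). The part of tissue handling or collection time in the rise of the 5 genes was not tested.

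Some transcripts were nearly present or absent by genotype. Vill encodes a villin-like protein of the actin-severing villin and gelsolin family and lies on chromosome 9 at 119052778-119071525 of GRCm38. It was at 31.1, 31.6 and 34.4 in WT against 0, 0.0672 and 0.342 CPM in K74R (log2 fold change -7.82, SE 0.36, adjusted p = 1.32e-05), so that the K74R libraries were at about the floor. The other 5 tested members of the villin and gelsolin family were not called, with positive values throughout. Near Vill, Acaa1a, a peroxisomal thiolase, fell by 0.71 on the log2 scale (adjusted p = 0.0318), and the pseudogene Slc22a13b-ps rose from 0 to 0.369 CPM to 1.75 to 1.98 CPM (adjusted p = 0.047). These were 3 of the 6 tested genes in this span of chromosome 9. The span runs from the first to the last called gene, which by itself raises the share called above the 0.773% of all genes. Both neighbours were named after their values were seen.

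The processed pseudogene Rpl3-ps1 on the X chromosome (13202571-13203780) fell from 53.2, 54.0 and 57.6 CPM to 5.61, 6.72 and 6.09 CPM, 8.95-fold by the means (log2 fold change -3.16, SE 0.10, adjusted p = 1.79e-06). Gm8730, a processed pseudogene on chromosome 8 (102864845-102865798), rose from 9.42, 9.68 and 9.66 CPM to 51.7, 52.6 and 47.2 CPM (log2 fold change 2.40, SE 0.09, adjusted p = 4.03e-06). AI506816, a noncoding transcript on chromosome 5 (23698296-23712667), rose from 7.36, 9.43 and 7.82 CPM to 202, 103 and 102 CPM, with K74R library 1 well above the others (log2 fold change 4.05, adjusted p = 4.31e-04). For both pseudogenes the 3 libraries of a genotype lay close together. Reads of a processed pseudogene can also come from its parent gene or its other copies, and how the authors treated reads with several matches is not stated, so these values are uncertain as to their source.

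Dsp encodes desmoplakin, which ties intermediate filaments to desmosomes. It was at 2.52, 2.26 and 1.99 in WT against 12.9, 14.6 and 14.03 CPM in K74R, a 6.14-fold difference of the means (log2 fold change 2.61, SE 0.17, adjusted p = 2.61e-04). Of 14 listed desmosome genes 5 were abundant enough to test, and Dsp was the one called, with a median of 0.06. Lypd6b, a member of the Ly6 family of small surface proteins, rose from 0.258, 0.189 and 0.369 CPM to 2.90, 5.71 and 5.06 CPM (log2 fold change 4.05, adjusted p = 0.00446). Gm49450, a predicted coding gene on chromosome 15, was at 0.258, 0 and 0.0737 in WT against 5.15, 16.1 and 14.4 CPM in K74R (adjusted p = 0.00495). Gm16867 had no count in any WT library and 2.90, 8.87 and 5.88 CPM in K74R, at least 88.2-fold higher against a floor of 3 counts over the WT group. Eif3j2, an intronless copy of an initiation factor subunit, was at 1.57 to 1.84 in WT against 7.79, 40.1 and 34.8 CPM in K74R (adjusted p = 0.0196). For Gm49450, Gm16867 and Eif3j2, K74R library 1 was the lowest mutant library, and the last pair was named after its values were seen. Over all 115 called genes, K74R library 1 lay nearest the WT libraries in 60, library 2 in 27 and library 3 in 28.

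**Figure D3:**
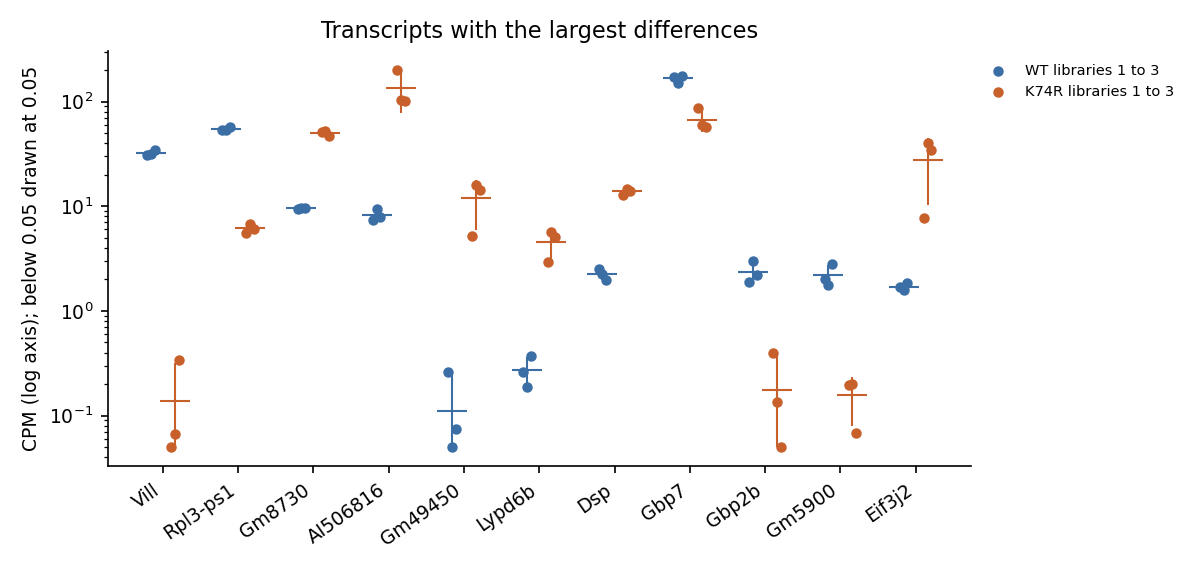
CPM on a log axis for 11 transcripts with large differences, with 3 WT libraries (blue) and 3 K74R libraries (orange) each, the mean as a horizontal line and 1 SD as a vertical line, values below 0.05 CPM being drawn at 0.05. Vill, Rpl3-ps1, Gbp7, Gbp2b and Gm5900 are lower in all K74R libraries, and the other 6 are higher.

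Guanylate-binding proteins are GTPases that interferon induces and that attack microbe-containing vacuoles. In this list, with the related immunity-related GTPases, 3 of 16 tested members fell and none rose (0.262% of all genes fell), with a median of -0.30. Gbp7 fell from 173, 151 and 177 CPM to 86.2, 59.2 and 56.7 CPM (log2 fold change -1.31, SE 0.15, adjusted p = 0.00865). Gbp2 fell from 21.6, 20.7 and 22.8 CPM to 12.9, 12.02 and 13.3 CPM (log2 fold change -0.77, adjusted p = 0.0176). Gbp2b fell from 1.87, 3.02 and 2.21 CPM to 0.396, 0.134 and 0 CPM (adjusted p = 0.0408). All 3 lie within 142530342-142638008 of chromosome 3, where they made up 3 of the 4 tested genes. The remaining one, Gbp3, was at 22.3 to 26.5 CPM against 15.2 to 20.3 CPM (adjusted p = 0.176). This span too was cut at its first and last called gene. On chromosome 5, Gbp9 stood at 20.2 to 34.5 in WT against 39.8 to 43.3 CPM in K74R (adjusted p = 0.126) and Gbp8 had a log2 fold change of 0.67 (adjusted p = 0.169). Members of this family are similar in sequence, so reads may be split among them. Without WT library 3 or K74R library 2 none of the 3 calls passed, and the adjusted p reached 0.0784 for Gbp7, 0.115 for Gbp2 and 0.212 for Gbp2b in the fits with a library left out.

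No member of the 35 tested type I interferon-stimulated antiviral genes passed, with a median of -0.14. At an unadjusted p of 0.05, passed by 7.99% of all genes in the lower direction, 1 was higher and 6 were lower (DESeq2 called 2, both lower). Ifih1, a sensor of double-stranded RNA, was at 74.4 to 82.7 in WT against 48.6 to 69.5 CPM in K74R (adjusted p = 0.129), and Ifitm3, which blocks virus entry, was at 124 to 154 CPM against 95.2 to 122.8 CPM (adjusted p = 0.135). Apobec3, a cytidine deaminase that restricts retroviruses, rose from 161, 144 and 138 CPM to 251, 238 and 256 CPM (log2 fold change 0.75, SE 0.08, adjusted p = 0.00446). The overlapping noncoding transcript D730005E14Rik, classed as antisense in the annotation, rose with it, from 3.74, 3.39 and 2.88 CPM to 9.05, 10.6 and 11.0 CPM (log2 fold change 1.61, adjusted p = 0.00765). The annotation places both on the plus strand, overlapping in part, at 79891659-79915906 and 79889532-79893120 of chromosome 15, so some reads could belong to either. Ncf4, a subunit of the phagocyte NADPH oxidase, fell by 0.60 on the log2 scale (adjusted p = 0.0438) and H1f0, a linker histone of resting cells, fell by 0.60 (adjusted p = 0.0196). With Cbx6, named after its value was seen (log2 fold change 0.46, adjusted p = 0.0349), they formed the longest run of neighbouring called genes, 5 of 47 tested genes between 78244801 and 79891659 of chromosome 15.

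In all, the called genes held 12 runs of 2 or more with starts at most 1 Mb apart. Each span was cut at its first and last called gene, so the share called within it partly follows from that choice. Beside those on chromosomes 9, 3 and 15, these included Ifi209 and Ifi203, interferon-inducible DNA-binding proteins that rose by 0.86 and 0.87 on the log2 scale on chromosome 1. They also included immunoglobulin heavy chain genes on chromosome 12 and kappa light chain segments on chromosome 6. Around Klf1 (chromosome 8, 84901928-84905291) none of 93 tested genes within 5 Mb was called, 1 of 147 within 10 Mb, Herpud1, and 2 of 303 within 20 Mb. The share called by chromosome ran from 0.282% on chromosome 18 to 1.43% on chromosome 15.

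Lymphoid transcripts were mostly higher in K74R marrow, but few passed the test. In the list of early B cell genes and V(D)J recombination 21 of 22 tested members had positive values, the median log2 fold change was 0.78, and 1 member was called. Il7r, the receptor for the cytokine on which B and T cell precursors depend, rose from 41.9, 68.8 and 35.2 CPM to 95.0, 130.7 and 151.7 CPM (log2 fold change 1.37, SE 0.24, adjusted p = 0.0454). Its call was lost without any one of WT libraries 1 and 3 and K74R libraries 2 and 3, with adjusted p up to 0.212. Rag1, the recombinase that cuts antigen receptor genes, was at 61.0, 109 and 40.8 in WT against 150, 194 and 222 CPM in K74R (log2 fold change 1.42, adjusted p = 0.0798). The B lineage factors Ebf1 (log2 fold change 1.08, adjusted p = 0.093) and Pax5 (0.92, adjusted p = 0.115) also had separate groups. WT library 2 was the highest WT library for Il7r, Rag1, Ebf1 and Pax5, and K74R library 1 the lowest mutant one. In bulk samples a larger number of cells of a type and more RNA per cell cannot be told apart.

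All 25 tested genes of mature B cell receptor signaling had positive values, with a median of 0.61, and none was called by edgeR. At an unadjusted p of 0.05 there were 20, beside 9.8% of all genes higher, and DESeq2 called 6. Cd22, an inhibitory receptor of B cells, was at 24.5 to 36.0 in WT against 45.8 to 57.2 CPM in K74R (adjusted p = 0.0727). The kinase Syk was at 375 to 495 CPM against 560 to 698 CPM (adjusted p = 0.0864), and the IgM constant gene Ighm at 611, 880 and 470 CPM against 922, 1159 and 1220 CPM (adjusted p = 0.13). The summed level of the early B cell list ran from 4510 to 4793 CPM in WT and from 5264 to 5934 CPM in K74R. Most of it came from Cd24a, which red cell precursors also express and which overlapped (2908 to 3377 against 2765 to 3331 CPM). The other 21 members summed to 1361, 1885 and 1133 in WT against 1939, 2603 and 2856 CPM in K74R, also apart.

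T cell genes were scarce in these libraries. None of 25 tested members was called by edgeR or DESeq2, 21 values were positive and the median was 0.43. At an unadjusted p of 0.05, 4 members were higher, beside 9.8% of all genes. Lck, the kinase of the T cell receptor, was at 9.36 to 10.8 in WT against 13.8 to 14.2 CPM in K74R (adjusted p = 0.126), and the summed level of the list was 96.9 to 98.86 CPM against 119.4 to 131.5 CPM. Of 14 tested natural killer and cytotoxic genes none was called by either tool either. At an unadjusted p of 0.05, 5 were higher and 1 lower, beside 9.8% and 7.99% of all genes. Eomes, a factor of natural killer cells, was at 0.691 to 1.16 CPM against 1.98 to 2.60 CPM (adjusted p = 0.101).

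Immunoglobulin genes of switched classes moved in opposite directions. Ighg1, the constant gene of IgG1, fell from 59.0, 76.4 and 65.7 CPM to 31.04, 23.2 and 22.9 CPM (log2 fold change -1.38, SE 0.14, adjusted p = 0.00446). Igha, the constant gene of IgA, rose from 132, 96.7 and 126 CPM to 187, 303 and 262 CPM (log2 fold change 1.08, SE 0.17, adjusted p = 0.0337), with K74R library 1 the lowest of the mutants. The Igha call was lost when any of WT libraries 1 and 3 and K74R libraries 2 and 3 was left out (adjusted p up to 0.175). Ighg2b was at 132 to 192 in WT against 115 to 158 CPM in K74R (adjusted p = 0.325), and Ighg2c at 24.6 to 40.5 CPM against 17.0 to 32.0 CPM (adjusted p = 0.309). Plasma cell genes without a class showed no call. Jchain, which joins IgA and IgM into polymers, was at 89.1 to 110 in WT against 121 to 170 CPM in K74R (adjusted p = 0.16), and Xbp1, the factor of secretory cells, had a log2 fold change of -0.14 (adjusted p = 0.303). Among variable segments, Igkv4-59 rose (2.84 to 3.65 CPM against 8.28 to 9.57 CPM), while its neighbours Igkv4-57-1 (4.19 to 5.24 CPM against 1.123 to 1.30 CPM) and Igkv4-57 fell. Variable segments of one family can be similar in sequence and differ between mouse strains, and such reads can be assigned to the wrong segment. The labels give no strain.

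Neutrophil genes of the early stages were lower. Of 15 tested genes of neutrophil progenitors and primary granules 14 had negative values, the median was -0.31, and in 13 all K74R libraries lay below all WT libraries, which held for 11.1% of all genes. The called member was Serpinb1a, an inhibitor of granule proteases, which fell from 406, 408 and 464 CPM to 309, 303 and 277 CPM (log2 fold change -0.52, SE 0.08, adjusted p = 0.0316). This call was lost without any one of WT libraries 1 and 3 and K74R libraries 2 and 3 (adjusted p up to 0.175). Ms4a3, a mark of granulocyte and monocyte progenitors, was at 130 to 176 in WT against 101 to 112 CPM in K74R (adjusted p = 0.0571). The granule proteases Ctsg (204 to 273 CPM against 159 to 178 CPM, adjusted p = 0.0811) and Prtn3 (234 to 335 CPM against 185 to 219 CPM, adjusted p = 0.093) and the peroxidase Mpo (1340 to 1722 CPM against 1199 to 1279 CPM, adjusted p = 0.195) were apart in the same direction.

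Genes of late granules and maturation had a median of -0.06 over 24 members, and edgeR called none (DESeq2 called 1 higher and 3 lower). At an unadjusted p of 0.05, 4 were higher and 5 lower, beside 9.8% and 7.99% of all genes. S100a8 and S100a9, which form calprotectin, the most abundant cytosolic protein of neutrophils, had log2 fold changes of -0.40 (adjusted p = 0.132) and -0.34 (0.17). Csf3r, the G-CSF receptor, was at 256 to 316 in WT against 372 to 411 CPM in K74R (adjusted p = 0.0803). The summed level of 6 neutrophil markers ran from 14320 to 15250 CPM in WT and from 11800 to 12750 CPM in K74R. S100a8, the most abundant of them, was at 6418 to 7076 in WT against 4589 to 5531 CPM in K74R. Mpo and Elane were also apart, while Ltf (adjusted p = 0.507), Camp (0.722) and Ly6g (0.842) overlapped. The fall of Ncf4 and Serpinb1a went with that of this sum, whose part in both results was not tested.

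Eosinophil genes were higher. In the list of eosinophil, basophil and mast cell genes 18 of 19 tested members had positive values, the median was 0.34 and 3 members rose, beside 0.511% of all genes. Epx, the eosinophil peroxidase, rose from 193, 215 and 178 CPM to 263, 336 and 330 CPM (log2 fold change 0.67, SE 0.11, adjusted p = 0.0349). Ear6, an eosinophil-associated ribonuclease of a family of near-identical copies, rose from 107, 115 and 98.7 CPM to 144, 188 and 171 CPM (log2 fold change 0.65, adjusted p = 0.0341). Il5ra, the receptor for the eosinophil growth factor interleukin 5, rose from 3.16, 3.90 and 2.06 CPM to 7.40, 10.3 and 7.39 CPM (log2 fold change 1.45, adjusted p = 0.0454). The 3 calls were lost without any one of WT libraries 1 and 3 and K74R libraries 2 and 3 (adjusted p up to 0.175 for Ear6, 0.201 for Epx and 0.212 for Il5ra). Alox15 (adjusted p = 0.0881), Prg3 (0.0891), Prg2 (0.159) and Siglecf (0.195) had separate groups in the same direction. The same held for Fcer1a (0.179), a gene of basophils and mast cells. Other eosinophil genes overlapped, among them Ear2 (137 to 192 in WT against 184 to 210 CPM in K74R, adjusted p = 0.252). Ccr3 (33.2 to 48.2 CPM against 37.8 to 58.3 CPM, adjusted p = 0.502) overlapped too. So did the basophil genes Mcpt8 and Prss34 and the mast cell genes Cpa3 and Ms4a2. Hdc had the 1 negative value of the list (log2 fold change -0.36, adjusted p = 0.195), and its groups overlapped.

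Of 24 tested monocyte and macrophage genes and 17 dendritic cell genes edgeR called none. DESeq2 called 1 higher and 2 lower in the first list and 1 higher in the second. At an unadjusted p of 0.05 there were 4 higher and 4 lower in the first and 6 higher in the second. Over all genes 9.8% were higher and 7.99% lower at that p. F13a1, the factor XIII subunit of monocytes and platelets, was at 557 to 855 in WT against 394 to 546 CPM in K74R (adjusted p = 0.108), and Itgax (CD11c) was at 14.4 to 18.1 CPM against 22.8 to 27.3 CPM (adjusted p = 0.0704). Of class II presentation genes none of 13 passed (6 higher and 1 lower unadjusted, 2 higher by DESeq2), with a median of 0.25. Ciita, the switch of this gene group, was at 9.14 to 11.9 in WT against 15.4 to 17.8 CPM in K74R (adjusted p = 0.0909). Of 18 tested immune checkpoint genes Cd200, a surface ligand that calms myeloid cells, rose from 4.07, 4.84 and 4.57 CPM to 8.85, 11.9 and 10.9 CPM (log2 fold change 1.23, adjusted p = 0.0215). The Cd200 call was lost when any of WT libraries 1 and 3 and K74R libraries 2 and 3 was left out (adjusted p up to 0.158). Cd274 (PD-L1) was at 10.5 to 11.1 in WT against 7.12 to 8.65 CPM in K74R (adjusted p = 0.163), and Pdcd1 (PD-1) was too low to test.

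**Figure D4:**
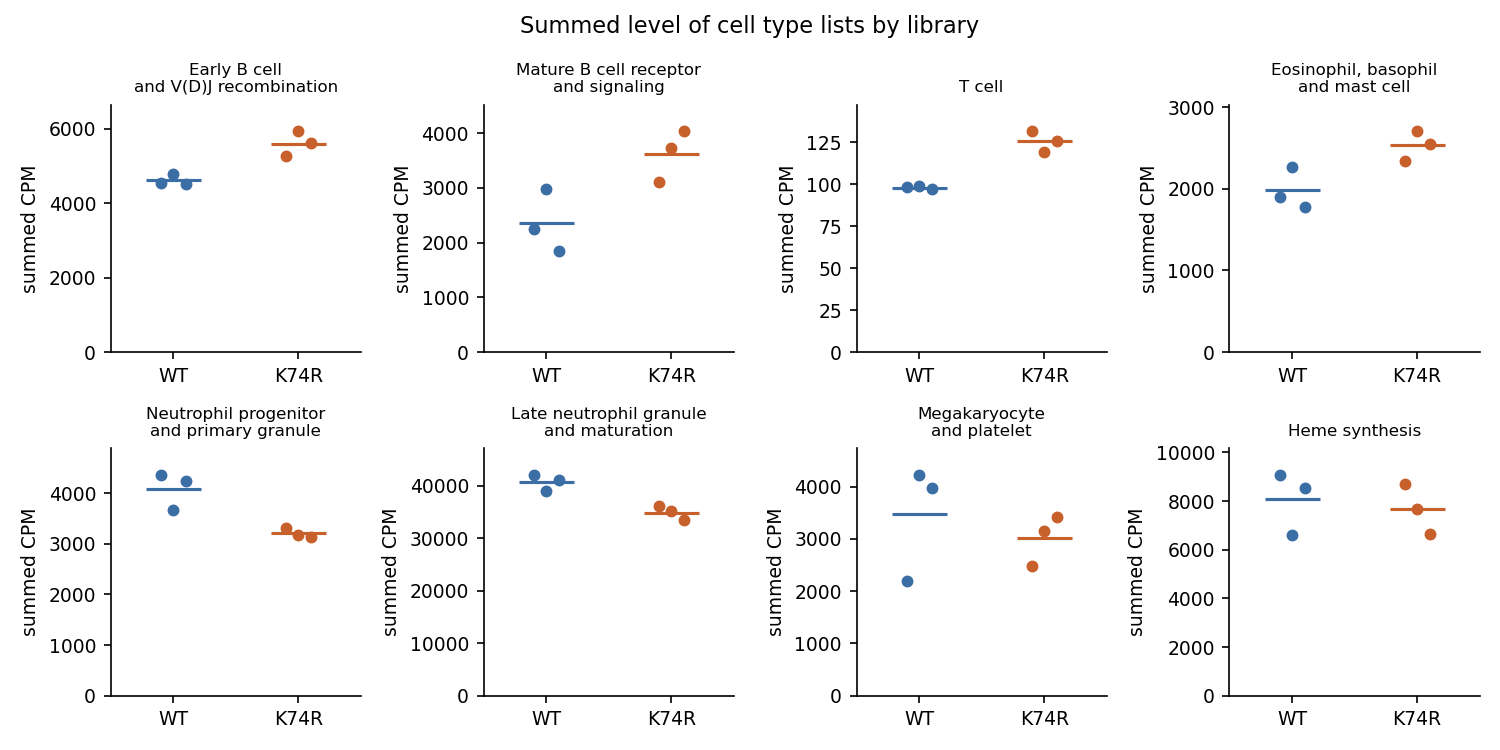
Summed CPM of the members of 8 cell type lists in each WT (blue) and K74R (orange) library, with the mean of each group as a line and axes that start at 0. The K74R libraries lie above the WT libraries for both B cell lists, T cells and eosinophils and below them for both neutrophil lists, and the groups overlap for megakaryocyte and heme genes. Cd24a makes up most of the early B cell sum.

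Red cell genes, the known targets of Klf1, showed little difference. None of the 6 tested globin genes, 13 heme synthesis genes and 19 membrane and cytoskeleton genes was called by edgeR, and DESeq2 called 1, a globin gene. At an unadjusted p of 0.05 these lists held 1 globin gene that was higher, and 1 heme and 1 membrane gene that were lower. The globin share of all counts was 2.65% to 3.31% in WT and 2.86% to 3.50% in K74R. Alas2, the first enzyme of heme synthesis in red cells, was at 1777, 1482 and 1710 in WT against 1946, 1882 and 1560 CPM in K74R (adjusted p = 0.624). The erythroid factor Gata1 had a log2 fold change of -0.07 (adjusted p = 0.728).

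Of 14 erythroid transcription factors Bcl11a, the repressor of fetal globin that is also a factor of B cells, rose from 80.3, 76.5 and 73.5 CPM to 106, 96.7 and 104 CPM (log2 fold change 0.42, SE 0.07, adjusted p = 0.0454). Its call was lost in every fit with a library left out except that without WT library 2 (adjusted p up to 0.214). The summed level of the early B cell list without Cd24a was also higher in all K74R libraries, and its part was not tested. Of 17 iron genes Erfe (erythroferrone), the hormone by which erythroblasts lower hepcidin, fell from 12.9, 4.84 and 11.6 CPM to 2.71, 1.75 and 0.89 CPM (log2 fold change -2.44, SE 0.44, adjusted p = 0.0475), with WT library 2 the lowest WT library. Erfe did not pass once any of WT libraries 1 and 3 or K74R libraries 2 and 3 was left out (adjusted p up to 0.224). The erythropoietin receptor gene Epor had a log2 fold change of 0.05 (adjusted p = 0.884) and the transferrin receptor gene Tfrc of -0.05 (0.897).

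All 19 tested megakaryocyte and platelet genes had negative values, with a median of -0.23, but none separated the groups and none was called by edgeR or DESeq2 (1 lower at an unadjusted p of 0.05). WT library 1 was the lowest WT library for this list, with 2202 CPM in sum against 3976 and 4222 CPM in the others. Among 22 stem and progenitor genes edgeR called none (DESeq2 called 2 higher, as many as had an unadjusted p under 0.05), with Myb, a factor of progenitors, at 225 to 266 in WT against 293 to 387 CPM in K74R (adjusted p = 0.0864). Of 14 tested KLF genes other than Klf1, Klf10, a target of TGF-beta, fell from 52.2, 42.9 and 54.0 CPM to 34.8, 32.9 and 33.5 CPM (log2 fold change -0.56, adjusted p = 0.0454). The Klf10 call was lost in every fit with a library left out except that without WT library 2 (adjusted p up to 0.219).

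No gene passed in the lists of respiratory chain, mitochondrial genome, ribosomal protein, DNA replication and heat shock genes, although most of their values were negative. All 56 tested nuclear-encoded respiratory chain and ATP synthase genes had negative values, with a median of -0.20, and none passed (DESeq2 called 1, lower). At an unadjusted p of 0.05, 20 were lower, beside 7.99% of all genes. All 15 genes of the mitochondrial genome were negative, with a median of -0.18. Negative values were also found for 69 of 73 ribosomal protein genes (median -0.17), 36 of 39 DNA replication genes (median -0.14) and 9 of 10 heat shock genes (median -0.19). None of these 4 lists had a call by edgeR (at an unadjusted p of 0.05 they had 2, 4, 5 and 4 lower and 0, 0, 1 and 0 higher, and DESeq2 called 1, 0, 0 and 2, all lower). Summed levels overlapped between the genotypes for the mitochondrial genome (24010 to 32540 CPM in WT, 22580 to 26000 in K74R), ribosomal proteins (30470 to 37000 and 27130 to 32520) and DNA replication (6083 to 7064 and 5505 to 6615), with WT library 3 the highest in each. Respiratory chain sums were apart (4886 to 5694 CPM in WT, 4218 to 4736 in K74R). So were those of heat shock genes (3912 to 4503 and 3134 to 3587 CPM). All K74R libraries lay below all WT libraries in 17 of the 56 respiratory chain genes and 4 of the 10 heat shock genes. For the mitochondrial genome, ribosomal protein and DNA replication lists this held in 1, 3 and 8 genes, and over all genes in 11.1%. Cycs, the cytochrome c gene, was at 98.2, 84.2 and 110 in WT against 67.8, 73.0 and 56.7 CPM in K74R (adjusted p = 0.0812). When libraries were scaled by their totals alone, the median of all genes moved from -0.001 to 0.03.

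Single genes of mitochondrial control passed. Pink1, the kinase that marks damaged mitochondria for removal, fell from 73.6, 77.7 and 79.0 CPM to 43.3, 48.6 and 41.1 CPM (log2 fold change -0.79, SE 0.08, adjusted p = 0.00556). Pdk1, the kinase that keeps pyruvate from the mitochondria, fell from 62.0, 60.9 and 61.9 CPM to 43.9, 32.6 and 33.1 CPM (log2 fold change -0.75, adjusted p = 0.0301). Without WT library 3 the adjusted p of Pink1 was 0.0512, and that of Pdk1 reached 0.175 among the fits with a library left out. In the list of 31 tested glycolysis and hypoxia genes Pdk1 fell and Ddit4 rose, 24 values were negative and the median was -0.21. At an unadjusted p of 0.05, 2 were higher and 12 lower, beside 9.8% and 7.99% of all genes (1 and 6 by DESeq2). In 2 members the groups were apart upward and in 10 downward, beside 11.8% and 11.1% of all genes. Summed levels were 5459 to 6472 CPM in WT against 4924 to 5299 CPM in K74R. Amd2, a copy of the polyamine enzyme gene Amd1, rose from 1.29 to 1.70 CPM to 5.15 to 5.91 CPM (log2 fold change 1.84, adjusted p = 0.011), whereas Amd1 was at 170 to 218 CPM against 142 to 167 CPM (adjusted p = 0.184). Reads of so similar a pair may be exchanged.

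Of 19 genes of endoplasmic reticulum folding, 16 had negative values (median -0.23), and Herpud1, part of the machinery that degrades misfolded proteins, rose from 64.3, 67.4 and 57.9 CPM to 82.3, 99.1 and 111 CPM (log2 fold change 0.62, adjusted p = 0.0478). The Herpud1 call was lost when any of WT libraries 1 and 3 and K74R libraries 2 and 3 was left out (adjusted p up to 0.22). In 11 list members all K74R libraries lay below all WT libraries and in 2 above them, beside 11.1% and 11.8% of all genes. At an unadjusted p of 0.05, 2 were higher and 9 lower, and DESeq2 called 2 in each direction. The sum was 4310 to 4900 CPM in WT against 3900 to 4122 CPM in K74R. Slc7a11, a cystine carrier of the next list, had 1 of its 2 positive values (log2 fold change 0.70, adjusted p = 0.133). Integrated stress response genes had negative values in 16 of 18 (median -0.30) with none called by edgeR (1 higher and 6 lower at an unadjusted p of 0.05, 1 lower by DESeq2). Shmt2, a mitochondrial serine enzyme, was at 82.2 to 117 in WT against 59.9 to 82.8 CPM in K74R, which overlap (adjusted p = 0.126).

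**Figure D5:**
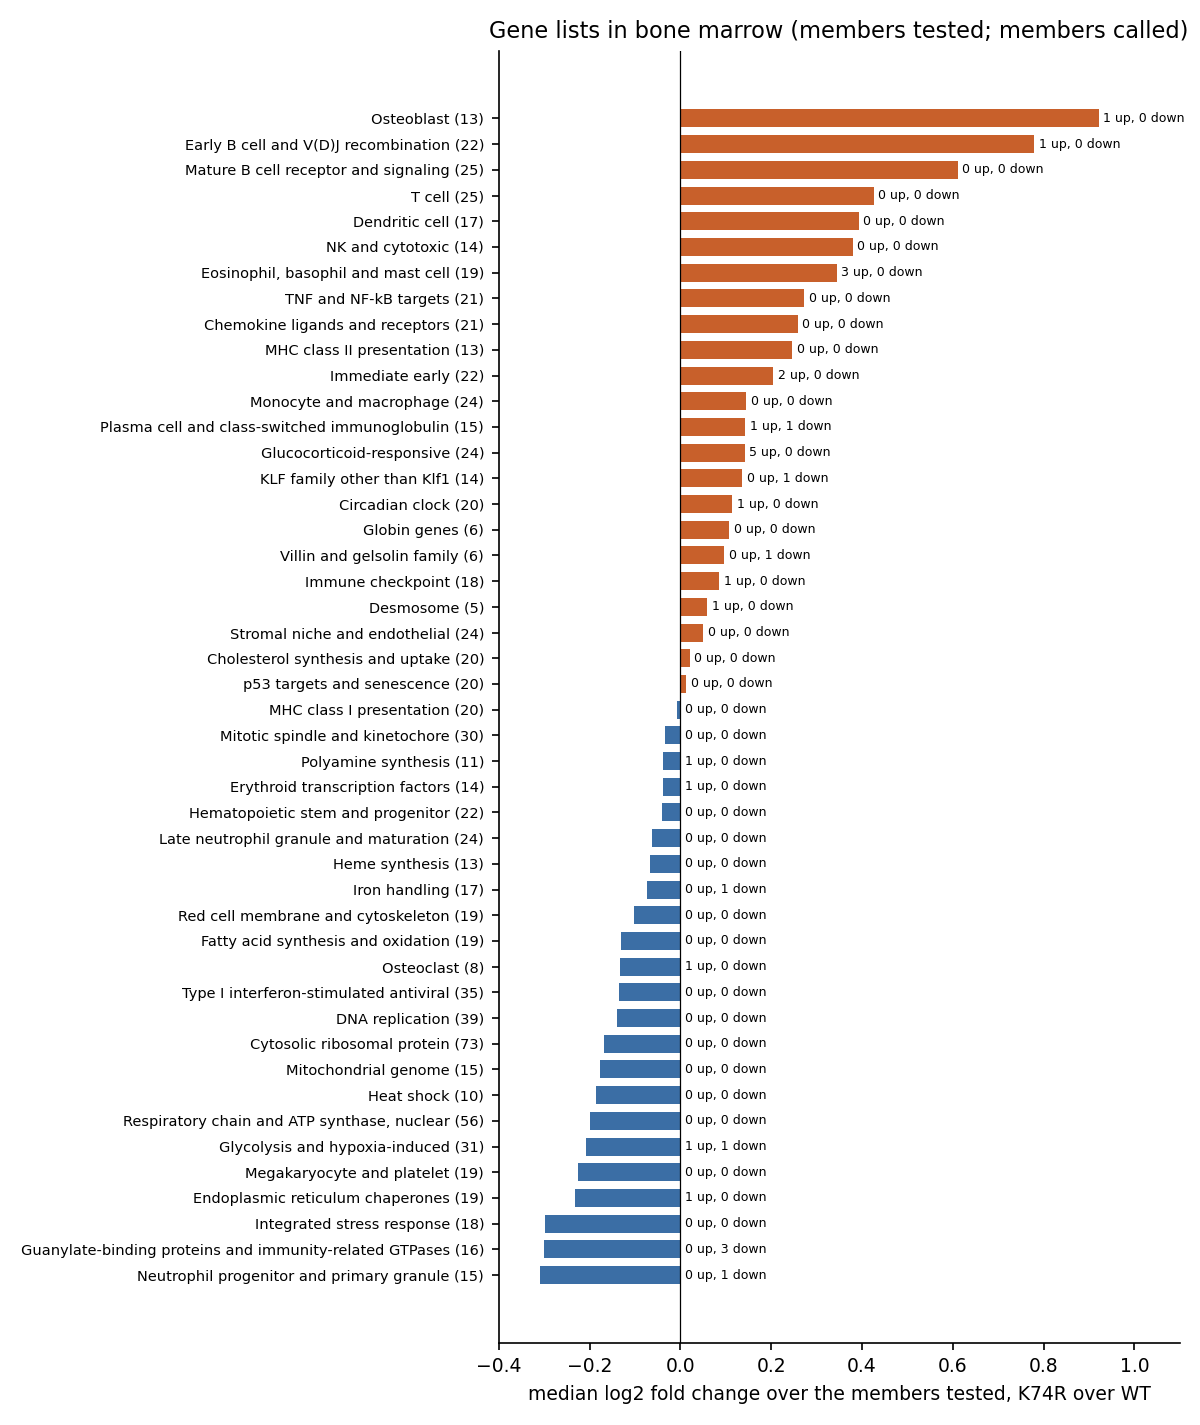
Median log2 fold change of K74R over WT for 46 gene lists, with the number of members tested in brackets and the numbers of called members beside each bar. Orange bars are above 0 and blue bars below it, from neutrophil progenitor genes at -0.31 to osteoblast genes at 0.92, and most lists hold at most 1 called gene.

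Of 13 tested osteoblast genes 11 had positive values and the median was 0.92, the largest of the lists plotted. Bmp3, a bone morphogenetic protein of osteoblasts and osteocytes, rose from 0.129, 0.126 and 0.0737 CPM to 0.924, 1.07 and 0.753 CPM (log2 fold change 2.96, SE 0.51, adjusted p = 0.0438), with the WT libraries under the floor. The Bmp3 call was lost in every fit with a library left out except that without WT library 2 (adjusted p up to 0.212). Bglap (osteocalcin) was at 0.516, 1.57 and 0.295 in WT against 4.75, 3.16 and 1.505 CPM in K74R, and Col1a1 at 31.3, 96.2 and 17.4 CPM against 182, 127 and 65.8 CPM. Both overlapped between genotypes (adjusted p = 0.151 and 0.24). Of 8 tested osteoclast genes Ctsk (cathepsin K), the collagenase with which bone is resorbed, rose from 4.45, 5.34 and 5.60 CPM to 9.38, 18.0 and 16.1 CPM (log2 fold change 1.496, adjusted p = 0.0342), whereas Acp5 had a log2 fold change of -0.05 (adjusted p = 0.753). The Ctsk call was lost when any of WT libraries 1 and 3 and K74R libraries 2 and 3 was left out (adjusted p up to 0.175). The list of stromal niche and endothelial genes had no call among 24 by either tool (3 higher at an unadjusted p of 0.05).

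The remaining lists held no called gene apart from Amd2. Of 21 tested chemokine genes, with a median of 0.26, 4 were higher and 1 lower at an unadjusted p of 0.05 (2 and 1 by DESeq2), and Ccl6, a chemokine of myeloid cells, had a log2 fold change of 0.49 (adjusted p = 0.0775). Of 21 TNF and NF-kB target genes, with a median of 0.27, 7 were higher and 3 lower unadjusted (1 and 0 by DESeq2). Of 20 class I presentation genes, with a median of -0.01, 1 was higher and 3 lower unadjusted (0 and 1 by DESeq2), with B2m, the light chain of class I, at a log2 fold change of -0.33 (adjusted p = 0.133). Cholesterol genes (20 tested, 2 higher and 1 lower unadjusted) and fatty acid genes (19 tested, 1 higher and 4 lower) had no call by DESeq2 either. Of 20 p53 target genes 1 was higher unadjusted and by DESeq2, and of 30 mitotic genes none was by edgeR unadjusted or by DESeq2. The polyamine list, with Amd2 as its called gene, had a median of -0.04 over 11 genes. Of 5 tested sex-linked genes none was called (0 at an unadjusted p of 0.05, 0 by DESeq2), and Ddx3y on the Y chromosome was at 109.1 to 122.1 CPM in all 6 libraries.

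Further genes selected by their p values had varied roles. Atp1b1, a subunit of the sodium pump, rose from 38.7, 28.0 and 30.0 CPM to 69.0, 76.0 and 78.9 CPM (log2 fold change 1.21, SE 0.12, adjusted p = 0.00446). Banp, a DNA-binding nuclear matrix protein, rose from 11.9 to 14.8 CPM to 24.6 to 27.2 CPM (log2 fold change 0.94, adjusted p = 0.011). Reln, the secreted glycoprotein reelin, rose by 0.82 (adjusted p = 0.0135), Plin3, a coat protein of lipid droplets, by 0.92 (0.0135), and Dhrs9, a retinol dehydrogenase, by 0.70 (0.013). Among those that fell, Met, the receptor of hepatocyte growth factor, went from 52.5, 43.3 and 44.7 CPM to 29.6, 25.7 and 27.3 CPM (log2 fold change -0.77, SE 0.10, adjusted p = 0.0135). Kcnh7, a potassium channel, fell by 1.47 (adjusted p = 0.0135), Muc20, a mucin known to bind Met, by 2.08 (0.0135), Rab6b, a GTPase of Golgi transport, by 2.00 (0.0301), and Ggh, which trims folate tails, by 0.61 (0.0256). Rabggtb, a subunit of the enzyme that attaches lipid to Rab proteins, fell by 0.57 (adjusted p = 0.0247). Among gene models without a settled role, Gm12816 fell by 5.06 (adjusted p = 0.0316), BC147527 by 3.31 (0.011), Vmn2r97, of the vomeronasal receptor family, by 2.54 (0.00978) and Gm13340 by 0.92 (0.0438). Groups were apart for each of them, and all lost their call without WT library 3, with Atp1b1 then at an adjusted p of 0.0512.

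The genotype effects of marrow were then set beside those of the tumors and MSC, which share no library with them. A tumor library mixes MC38 cells, taken to be the same in both groups, with cells of the host, so its values are not those of a tissue of one genotype. Of the 76 genes that rose in marrow 52 could be tested in tumors and none was called there, and the same was true of 30 of the 39 that fell. In tumors no gene of 14779 was called higher (0%) and 6 were called lower (0.0406%). In MSC, with 2 libraries a group, 297 genes were called higher (2.05%) and 187 lower (1.29%). There, 4 of the 55 tested marrow-risen genes were also called higher, namely Dhrs9, AI506816, Amd2 and Ddit4, which is 7.27% of these and 1.35% of the genes higher in MSC. Another 4 (Bmf, Ctsk, Dsp and Gm49450) were called lower. Of 30 tested marrow-fallen genes Rpl3-ps1 and Gm7324 were called lower in MSC (1.07% of the genes lower there) and Spc24 higher. Gm7324 and Spc24 were named after their values were seen.

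The difference of genotype effects was tested in a model of all 16 libraries, in which 7 of 18191 genes (0.0385%) differed between marrow and tumor and 3428 (18.8%) between marrow and MSC. Vill was at 36.4 to 41.6 CPM in tumors labelled WT and 29.4 to 38.3 CPM in those labelled K74R, and its effect in marrow was lower by 7.61 on the log2 scale (adjusted p = 6.07e-07). Rpl3-ps1 was at 65.0 and 72.1 CPM in WT MSC and at 7.77 and 7.46 CPM in K74R MSC, and its effect differed from that in marrow by -0.01 (adjusted p = 1). AI506816 was at 1.91 and 0.815 CPM in WT MSC and at 350 and 251 CPM in K74R MSC, and at 222 to 276 CPM in all tumors. Per1 was at 29.5 to 49.9 in WT against 29.95 to 42.1 CPM in K74R among the tumors, and its effect in marrow was larger by 1.93 (adjusted p = 0.0222). Tsc22d3 was at 61.1 to 77.3 in WT against 76.4 to 103.1 CPM in K74R among the tumors, and at 68.7 and 63.1 in WT against 46.8 and 61.6 CPM in K74R MSC. Its marrow effect exceeded that in MSC by 1.54 (adjusted p = 2.78e-04) while the difference from tumor, 0.93, did not pass (adjusted p = 0.117). For Ddit4 the MSC libraries were at 12.7 and 15.2 in WT against 47.9 and 33.9 CPM in K74R, and the effect differed from that in marrow by 0.04 (adjusted p = 0.99).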

How the data were processed

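RNA from bone marrow was extracted with TRIzol and made into libraries with the KAPA mRNA HyperPrep kit, per the labels' protocols. The deposited values are raw read counts per gene. Per the submitters' processing notes, the authors used Trimmomatic 0.38, HISAT2 2.1.0, featureCounts 1.6.0, FastQC and MultiQC with the GRCm38 build. Annotation release, strandedness and the handling of multi-mapping reads: not given in the sources used here. All 55536 gene IDs matched symbols of the mouse gene annotation. Depth was 14067259 to 15858275 counts per library, and floors and limits from 3 counts cover counting error only.

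From these counts, genes with too few counts were removed (filterByExpr), libraries were scaled by TMM, and the 3 K74R and 3 WT libraries were compared with edgeR 4.0.16 (R 4.3.3) by the quasi-likelihood test, with Benjamini-Hochberg adjustment over all 14872 genes and a threshold of 0.05. The log2 fold changes use a prior count of 0.125, and a standard error is the absolute log2 fold change over the square root of F. CPM values use the library size times its TMM factor. Differences between tissues came from 1 model of all 16 libraries. The procedure was tested on simulated data. Alternatives were other scalings and filters, limma 3.58.1 (voom), DESeq2 1.42.0, a replicate block, a model of all libraries, exclusion of globin, mitochondrial and immunoglobulin genes, and each library left out in turn.

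Lists (47, with 1030 entries, all matched) and members were chosen with earlier results of these data known. Named were the 14 called genes with the smallest p in each direction among properly named genes of average log2 CPM of at least 0, up to 4 gene models and 4 immunoglobulin segments in each direction, the 5 largest changes in mean CPM in each direction, up to 3 called members per list and direction or else the 2 with the smallest p, and Klf1. Other genes named, among them further list members given for their known roles, were chosen after their values were seen. Some genes are not reported here.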

Additional observations from a re-analysis of the deposited data

Results flagged for a closer look

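For some of the named genes the genotype effect differed between bone marrow and another sample type, tested as an interaction in a model of all 16 libraries with edgeR's quasi-likelihood test and Benjamini-Hochberg adjustment. The values below are the log2 fold change of K74R over WT in marrow minus that in the other samples. Against tumor the difference was -2.778 for Rpl3-ps1 (adjusted p = 1.95e-05), 1.953 for Gm8730 (1.25e-04), -7.61 for Vill (6.07e-07), 4.083 for AI506816 (5.45e-05) and 1.934 for Per1 (0.0222).

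Against MSC, where each group has 2 libraries, the glucocorticoid-responsive genes differed by 1.542 for Tsc22d3, 2.334 for Per1, 2.056 for Zfp36 and 1.682 for Dusp1, and the related Sik1 and Zfp36l2 by 0.65 and 0.665. Among transcripts with large changes the difference was 1.272 for Gm8730, -9.518 for Vill, 6.424 for Dsp, -3.736 for AI506816, 7.824 for Lypd6b, 15.513 for Gm49450 and -3.021 for Gm5900. Gm49450 is nearly absent in WT marrow and in K74R MSC, so the size of its difference depends on the prior count.

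The other named genes that differed from MSC were Apobec3 (1.001), Banp (1.01), Cd200 (2.612), Ctsk (2.859) and Herpud1 (0.8) with a larger value in marrow. Dhrs9 (-2.982), H1f0 (-0.563), Rabggtb (-0.747), Pdk1 (-1.943), Gm13340 (-1.296), Klf10 (-1.231) and Erfe (-4.864) had a smaller one. The adjusted p values against MSC ran from 4.19e-07 for Vill to 0.04 for H1f0. Of all genes, 18.8% differed between marrow and MSC and 0.0385% between marrow and tumor.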

How the results depend on the processing

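The number of called genes (115, 76 higher and 39 lower) moved by more than 1.5 times under 3 settings. It was 875 (554 and 321) with no low-count filter, 518 (342 and 176) with DESeq2 and 60 (40 and 20) in a model of all 16 libraries. It stayed between 80 and 135 with other scalings, a 1 CPM filter, limma-voom, the replicate block, and without globin, mitochondrial and immunoglobulin genes. Leaving out 1 library gave 11 to 684 called genes, 8 to 429 higher and 3 to 255 lower. Genes whose effect differed between marrow and tumor (7) numbered 11 with relative log expression scaling, 603 with no low-count filter, 172 with DESeq2 and 4 to 20 with a library left out. The number of genes whose genotype effect differs between bone marrow and MSC (3428) was 2577 to 3287 with a library left out. Same-numbered libraries deviated together with correlations of 0.365, 0.186 and -0.182 over 12463 genes, while WT library 2 correlated best with K74R library 3 (0.275). Deviations from the mean of 3 libraries are not independent of each other. These values therefore cannot decide whether the numbers pair the samples. With the replicate block 135 genes were called, including 87 of the 115. No value changed direction past the threshold. The cause of these shifts was not tested. With 3 libraries a group and a count of calls that hangs on single libraries, genes that miss the threshold are not shown to be alike.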
